A study of Rattus norvegicus with 12 samples.

Results

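The integrin subunits described here are those encoded by Itga1, Itga3, Itga5, Itga6, Itgav, Itgb1, Itgb3, Itgb4 and Itgb5 of the rat. Members were all probes that the platform annotation of the array assigns to these 9 genes. Of the 21946 probes used, which name 12925 genes, 5 met this rule, 1 each for Itga1, Itga5, Itga6, Itgb1 and Itgb4. Neither symbol, gene ID nor accession linked a probe to Itga3, Itgav, Itgb3 or Itgb5, and these 4 genes were not analysed here. The arrays held total RNA of exosomes and of cells, all from rat. Exosomes are small vesicles that cells release and that carry RNA and protein. They came from ASML, a metastasising pancreatic carcinoma line, either wild type (wt exosomes, 3 arrays) or with a knockdown of CD44v, the variant isoforms of the adhesion molecule CD44 (kd exosomes, 3 arrays). B12 is named in the labels as a line of stroma cells from lymph node and was measured without treatment (2 arrays), after 24 h with wt exosomes (2 arrays) and after 24 h with kd exosomes (2 arrays). The column headers give 24 h for the untreated cells as well. No source used here gives the knockdown construct or says whether replicates came from separate cultures, so the p-values measure the spread between these arrays, which may be technical.

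Integrins are heterodimers of an α and a β subunit that span the membrane and tie the cell to its matrix. The β1 chain pairs with many α chains. With α1 it binds collagen and laminin, with α5 it binds fibronectin, and with α6 it binds laminin. The β4 chain pairs with α6 alone, and this dimer anchors epithelial cells to laminin in hemidesmosomes through plectin. Integrin proteins are known cargo of tumour exosomes, where they sit with tetraspanins, but the arrays measured mRNA and not protein.

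The genes of the 5 measured subunits lie on 5 separate chromosomes. In GRCr8, Itga1 spans chr2:48379181-48545336, Itga5 chr7:136358097-136381305, Itga6 chr3:77012168-77097076, Itgb1 chr19:73602277-73650271 and Itgb4 chr10:101705592-101741933. Where each probe lies within its transcript was not analysed here. The promoter table held 3 of the 5 genes, Itga1, Itga5 and Itgb1. Itga6 and Itgb4 are named only. The upstream bases of these genes are shown because Itga1 and Itga5 followed each other across the arrays while Itgb1 did not. Both α chains lay at or near background in exosomes. They are RefSeq sequence of GRCr8, 5′ to 3′ on the gene's strand, from chr2:48545337-48545533 (minus strand, 197 bases, only those outside the gene's span), chr7:136381306-136381555 (minus strand, 250 bases) and chr19:73602027-73602276 (plus strand, 250 bases). Capitals mark a GC box, GGGCGG on either strand.
Itga1: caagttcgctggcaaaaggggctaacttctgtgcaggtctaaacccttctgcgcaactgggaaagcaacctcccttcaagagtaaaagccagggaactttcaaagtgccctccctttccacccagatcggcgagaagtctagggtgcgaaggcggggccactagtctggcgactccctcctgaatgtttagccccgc
Itga5: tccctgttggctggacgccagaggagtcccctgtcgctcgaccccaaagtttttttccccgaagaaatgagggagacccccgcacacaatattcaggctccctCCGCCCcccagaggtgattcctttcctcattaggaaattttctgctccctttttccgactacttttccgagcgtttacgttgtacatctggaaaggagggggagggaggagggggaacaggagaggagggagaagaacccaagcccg
Itgb1: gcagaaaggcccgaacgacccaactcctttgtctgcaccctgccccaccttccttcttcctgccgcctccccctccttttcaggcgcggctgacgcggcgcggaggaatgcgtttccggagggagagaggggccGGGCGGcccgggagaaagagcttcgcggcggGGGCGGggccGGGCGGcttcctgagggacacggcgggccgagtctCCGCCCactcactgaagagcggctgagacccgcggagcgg
The search covered the 250 bases of each promoter entry on both strands. For Itga1 only 197 of these lie outside the gene's span and are shown, and the rest were searched as well. The GC box was found 4 times before Itgb1, 1 time before Itga5 and 0 times before Itga1, and 30.5% of 33469 promoters of the same length held at least 1. The CCAAT box (letters CCAAT, in 34.0% of promoters), the TATA box (letters TATAAA, in 12.9%) and an AP-1 site (letters TGANTCA, in 6.34%) matched in none of these 3 promoters. G and C made up 71.2% of the 250 bases searched for Itgb1, 55.6% for Itga5 and 54.4% for Itga1, against a median of 51.2% over all promoters.

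The exosome arrays were dimmer than the cell arrays. The mean signal over background per array was 108.4 to 173 for wt exosomes, 100.1 to 298.7 for kd exosomes and 504.7 to 588.4 for B12 cells. Replicates 1 and 2 of the kd exosomes were the brightest exosome arrays (298.7 and 244.1), and replicate 3 was the dimmest (100.1). Between 42.76 and 52.21% of probes were detected on exosome arrays and between 53.18 and 54.27% on B12 arrays, where detected means a deposited p-value under 0.05 on the bright side of background. Libraries stood apart in both sources. The array of kd exosome replicate 3 correlated at 0.842 and 0.829 with the other kd exosome arrays but at 0.946 to 0.969 with the 3 wt exosome arrays. In B12 cells, all 3 arrays with replicate number 1 differed from all 3 with number 2, whatever the treatment. Pdgfra, a receptor that marks stroma, stood 2690 to 2910 above background in number 2 and −0.492 to 16.2 in number 1, where 1 of 3 arrays detected it. Cdh1, the epithelial cadherin, stood 342 to 536 above background in number 1 and 12.3 to 67.1 in number 2. Of the stroma list, 10 of 13 genes with a probe were detected on every B12 array, with a summed share of the signal of 0.202 to 0.34% in number 1 and 1.04 to 1.13% in number 2. Of the epithelial list, 7 to 9 of 13 genes were detected in number 1 and 6 to 8 in number 2, with a share of 0.16 to 0.304% and 0.0506 to 0.0592%. Epcam, a carcinoma marker, was not detected on any B12 array and stood 514 to 1330 above background on all 6 exosome arrays. Cdh1 went the other way, at −5.2 to 9.96 on the exosome arrays, where 2 of 6 detected it. Krt8, an epithelial keratin, was detected on every array. It stood 2290 to 7170 above background on exosome arrays, 12000 to 15300 in number 1 and 2040 to 3180 in number 2. Ptprc, which marks leukocytes, was detected on no array, while 0 to 3 of the 9 leukocyte genes with a probe were detected per exosome array and 1 to 3 per B12 array, with shares of the signal of 0.000302 to 0.00439% and 0.00096 to 0.00789%.

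Itga1 and Itga6 were not detected in exosomes, Itga5 was detected in kd exosomes only among the exosome groups, and Itgb1 and Itgb4 were detected on every array of the series. The intensities below are those deposited before normalization, on arrays whose background lay at 104.5 to 107.9 for exosomes and 118.1 to 125 for B12 cells. They are set against the same probe on other arrays and never against another probe.

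**Figure D1:**
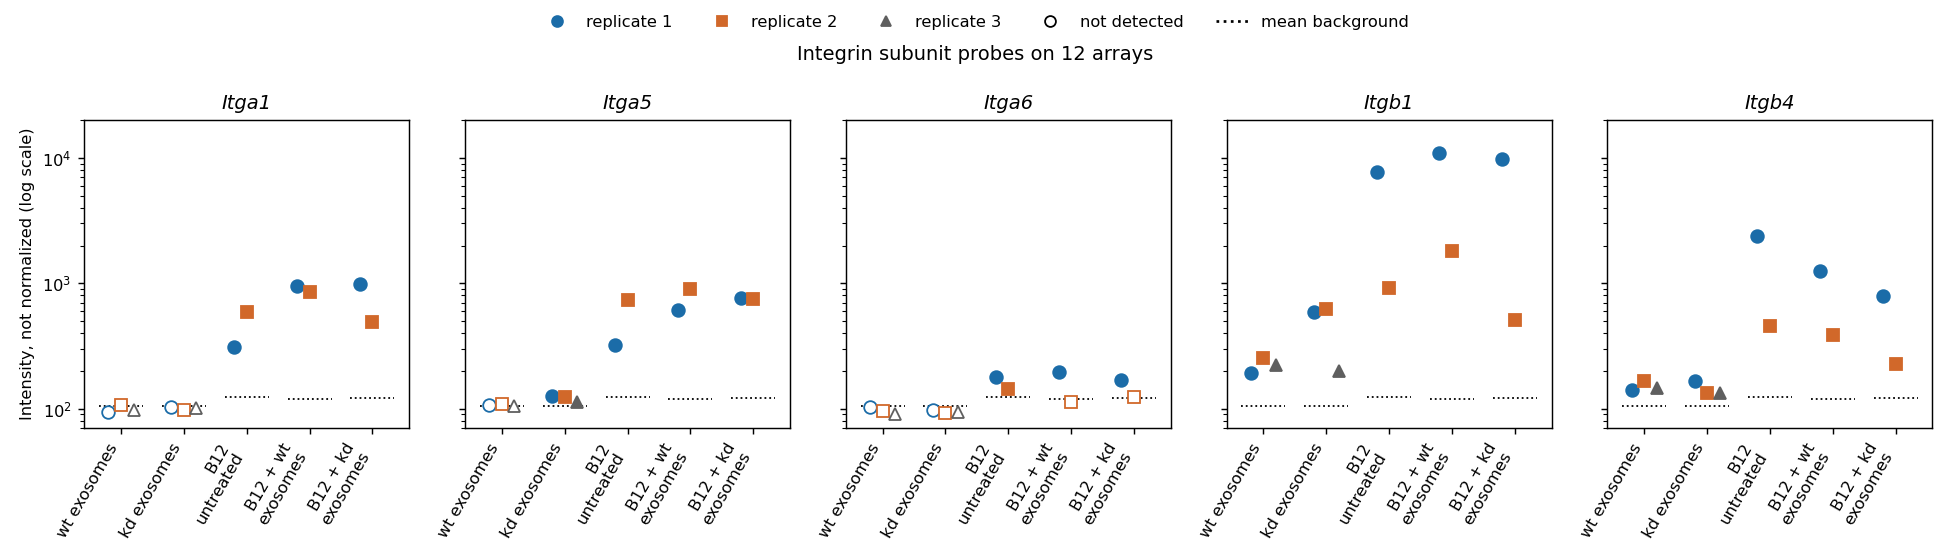
Deposited intensity (log scale, not normalized) of the 5 integrin probes on each of the 12 arrays, by group. Filled points were detected and open points were not, the symbol gives the replicate number, and the dotted line is the mean background of the group. Itgb1 and Itgb4 are detected on all arrays, and in B12 cells their number 1 points lie above their number 2 points in every group.

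Itgb1, the chain shared by most adhesive dimers of stroma and epithelium, read 191.2, 254 and 224.5 in wt exosomes. In kd exosomes it read 594.3, 622.8 and 198.8. It read 7736 and 914.9 in untreated B12 cells, 11000 and 1803 in cells with wt exosomes, and 9843 and 514.4 in cells with kd exosomes, for replicates 1 and 2. Replicate 1 was bright and replicate 2 was dim in each of the 3 B12 groups, and kd exosome replicate 3 read like the wt exosomes.

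Itgb4, the laminin receptor chain of hemidesmosomes, read 140.8, 166.8 and 146.1 on the wt exosome arrays and 166.8, 132.6 and 134.5 on the kd exosome arrays. In B12 cells it read 2372 and 453 untreated, 1249 and 387.9 with wt exosomes, and 787 and 228.1 with kd exosomes. The order of replicates was that of Itgb1, and within each replicate number the untreated array was the brightest.

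Itga5, the α chain of the fibronectin receptor, read 107.6, 110.1 and 106 in wt exosomes, where no array detected it. In kd exosomes it read 125.3, 123.3 and 113.8, detected on all 3 arrays at 17.4, 18.2 and 8.43 above background. In B12 cells it read 321 and 729.8 untreated, 608.5 and 900.2 with wt exosomes, and 766.9 and 752.4 with kd exosomes. Here replicate 1 was the dimmer array in the untreated and wt groups.

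Itga1, the collagen-binding α chain, read 94.9 to 106.8 over the 6 exosome arrays. In B12 cells it read 309.6 and 586.2 untreated, 960.2 and 849 with wt exosomes, and 987.5 and 487.6 with kd exosomes. The 6 exosome values lie at background, and both untreated cell values lie below those with wt exosomes.

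Itga6, the laminin-binding α chain and only partner of β4, read 90.6 to 102.9 over the 6 exosome arrays. In B12 cells it read 179.6 and 143.8 untreated, 197.7 and 113.4 with wt exosomes, and 168 and 124.1 with kd exosomes. The 113.4 and 124.1 of replicate 2 were not detected, so the treated groups have a single detected array each.

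The first comparison asked whether the knockdown of CD44v in the donor cells goes with other integrin mRNA in their exosomes. On the exosome arrays alone, after background correction and quantile normalization (log2), Itga5 and Itgb1 were higher and Itgb4 lower in all 3 kd exosome arrays than in any wt array, but none passed the test. Of 8699 probes tested, 0 passed an adjusted p of 0.05 in limma (Benjamini-Hochberg, two-sided, 0% called), and 1136 had an unadjusted p under 0.05. The 3 integrin probes tested were among the 17.9% of all probes whose groups did not overlap. Itga5 entered this test only because all 3 kd arrays detected it, while 0 wt arrays did. Its place above the wt arrays was thus largely fixed by the filter. Itga1 and Itga6 were detected on no exosome array and could not enter this test.

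The targeted gene, Cd44, had log2 levels of 6.99 ± 0.24 (SD, n = 3) in wt and 5.56 ± 0.18 (n = 3) in kd exosomes, a difference of −1.43 ± 0.28 (SE). Its 3 kd arrays differed from the wt mean by −1.41, −1.27 and −1.62. The probe's place relative to the variant exons was not analysed here, so it does not check the knockdown of the variant isoforms as such. The limma adjusted p was 0.38.

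Itgb1 had log2 levels of 7.64, 7.59 and 7.71 on the wt exosome arrays and 7.96, 8.44 and 7.94 on the kd exosome arrays. The difference was 0.46 ± 0.21 (SE), with a limma adjusted p of 0.382. The kd arrays lay 0.31, 0.79 and 0.29 above the wt mean. The largest offset was that of replicate 2.

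Itgb4 had log2 levels of 6.37, 6.41 and 6.21 on the wt exosome arrays and 5.60, 5.37 and 6.20 on the kd exosome arrays. The difference was −0.61 ± 0.31 (SE), with a limma adjusted p of 0.412. Replicate 3 of the kd exosomes, at 6.202, lay just under the dimmest wt array at 6.207, so the separation of the groups rests on replicates 1 and 2. Plec, whose product plectin links β4 to keratin filaments, differed by −0.62 ± 0.24 (SE), with an adjusted p of 0.38.

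Itga5 had log2 levels of 4.41, 4.46 and 4.31 on the wt exosome arrays and 4.80, 5.07 and 4.77 on the kd exosome arrays, with a limma adjusted p of 0.38. Because no wt array detected it, it is bounded and not measured there. Under this normalization it was at least 1.29-fold higher in kd exosomes when the lowest detected signal stands in for the wt level. The fitted difference was 0.49 ± 0.15 (SE). It was smaller without background correction, 0.13, and in the authors' values, 0.12, so the bound does not hold under every scaling.

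**Figure D2:**
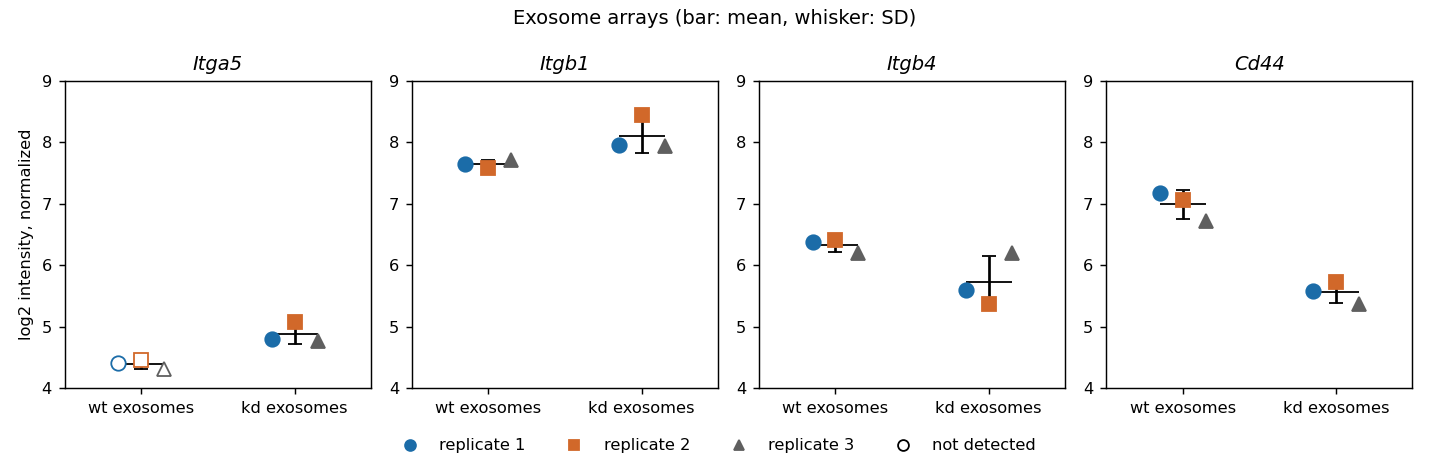
Normalized log2 intensity of Itga5, Itgb1, Itgb4 and the targeted gene Cd44 on the 6 exosome arrays; the bar is the mean, the whisker the SD (n = 3), and open points were not detected. The kd points lie above the wt points for Itga5 and Itgb1 and below them for Itgb4 and Cd44, with replicate 3 of the kd exosomes next to the wt points for Itgb4.

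Array kd replicate 3 decided these calls. Without it, Itga5 differed by 0.57 (limma adjusted p = 0.0285), Itgb1 by 0.56 (0.0233) and Itgb4 by −0.89 (0.0244), while 4332 of 10169 probes, 42.6%, were called. The array was left out with its values known, so these p-values are not tests of the comparison. Scaling moved the sizes: over the scalings tried, Itgb1 differed by 0.34 to 1.19, Itga5 by 0.12 to 0.49 and Itgb4 by −0.63 to −0.25. Under median scaling the median of all probes itself moved to 0.36, and relative to it Itga5 and Itgb1 lay above and Itgb4 below.

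Of the membrane partners of integrins, 12 were tested, 0 were called, and all 12 had a negative difference, with a median of −0.61 against −0.04 over all probes. The list holds Cd44 itself and tetraspanins, which organise integrins in the membrane. Tspan8, a tetraspanin of tumour exosomes, differed by −0.83 ± 0.33 (SE) and Cd151, the tetraspanin bound by α6 and α3 dimers, by −0.60 ± 0.25. The limma adjusted p of both was 0.38, and only Cd151 did not overlap between groups. Of the 14 adapters of the adhesion complex tested, 6 lay higher and 8 lower, with 0 called and a median of −0.17. Among 6 matrix ligands tested, 0 were called, 3 lay higher and 3 lower, and Lama5, a laminin α chain, had the smallest p with −1.05 ± 0.30. Other integrin subunits gave 4 tested genes, Itgam, Itgb6, Itgb7 and Itgbl1, with differences of −0.43, 0.37, 0.34 and −0.13 and 0 called. Epithelial markers moved along with these values: 10 to 12 of 13 were detected in wt and 9 to 11 in kd exosomes, with shares of the signal of 0.497 to 0.574% and 0.393 to 0.46%. Stroma markers did so as well, with 5 to 7 and 2 to 6 of 13 detected and shares of 0.0429 to 0.048% and 0.0196 to 0.0364%. Platelet and red cell markers, 3 or 4 of 5 detected, made up 0.0236 to 0.087% in wt exosomes, 0.00224 and 0.00312% in kd replicates 1 and 2 and 0.188% in kd replicate 3. The part of these markers in the result was not tested.

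The second comparison asked what 24 h with exosomes did to integrin mRNA of the recipient cells. No integrin probe passed the test in B12 cells with wt exosomes against untreated cells, where 0 of 11631 probes were called (0%) and 326 had an unadjusted p under 0.05, nor with kd exosomes, where 0 were called (0%) and 286 had one. Each comparison had 2 arrays per group, and both share the untreated arrays. The replicate number was not a term of this fit, so the SEs below include the spread between numbers. The adjusted p was 1 for all 5 probes in limma in both. In bulk RNA, fewer cells of a type and less RNA per cell cannot be told apart.

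Itga1 had log2 levels of 7.82 and 8.77 in untreated cells, 9.67 and 9.53 with wt exosomes, and 9.89 and 8.58 with kd exosomes, for replicates 1 and 2. It differed by 1.31 ± 0.55 (SE) with wt exosomes and by 0.94 ± 0.55 with kd exosomes. With wt exosomes it was the single integrin probe of 5 whose groups did not overlap, as did 24.2% of all probes. Replicate 1 gave the larger difference: within number 1 the wt and kd differences were 1.86 and 2.08, and within number 2 they were 0.76 and −0.20.

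Itga5 had log2 levels of 7.89 and 9.16 untreated, 8.90 and 9.63 with wt exosomes, and 9.47 and 9.33 with kd exosomes. The differences were 0.74 ± 0.51 (SE) and 0.87 ± 0.51. With kd exosomes it was the single probe of 5 whose groups did not overlap, as did 22.2% of all probes. Within number 1 the differences were 1.00 and 1.58, and within number 2 they were 0.47 and 0.17, so all 4 had the same sign and the larger ones came from number 1.

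Itgb4 had log2 levels of 11.29 and 8.29 untreated, 10.11 and 8.11 with wt exosomes, and 9.52 and 6.94 with kd exosomes. The differences of −0.68 ± 1.40 (SE) and −1.57 ± 1.40 did not pass the test. Within number 1 they were −1.18 and −1.78, and within number 2 they were −0.18 and −1.36, so the treated array was the lower in all 4 pairs. The order untreated, wt, kd held in both numbers.

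Itgb1 had log2 levels of 13.08 and 9.53 untreated, 13.43 and 10.69 with wt exosomes, and 13.34 and 8.66 with kd exosomes. The differences were 0.76 ± 2.03 (SE) and −0.30 ± 2.03. Within number 1 they were 0.35 and 0.26, and within number 2 they were 1.17 and −0.87, so the sign with kd exosomes was not the same in both numbers.

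Itga6 had log2 levels of 6.26 and 5.07 untreated, 6.46 and 4.19 with wt exosomes, and 6.07 and 4.45 with kd exosomes. The differences of −0.35 ± 0.97 (SE) and −0.41 ± 0.97 were smaller than their errors. Within number 1 they were 0.19 and −0.20, and within number 2 they were −0.89 and −0.63, where both treated arrays were not detected.

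Leaving out single B12 arrays turned the sign of some of these differences. With wt exosomes they then ranged from −1.47 to 0.79 for Itga6, from −1.02 to 2.54 for Itgb1 and from −2.19 to 0.82 for Itgb4, and with kd exosomes from −1.23 to 0.40 for Itga6 and from −2.64 to 2.04 for Itgb1. The sign held for Itga1 (0.83 to 1.79 and 0.28 to 1.59), for Itga5 (0.10 to 1.37 and 0.24 to 1.51) and for Itgb4 with kd exosomes (−3.07 to −0.07).

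**Figure D3:**
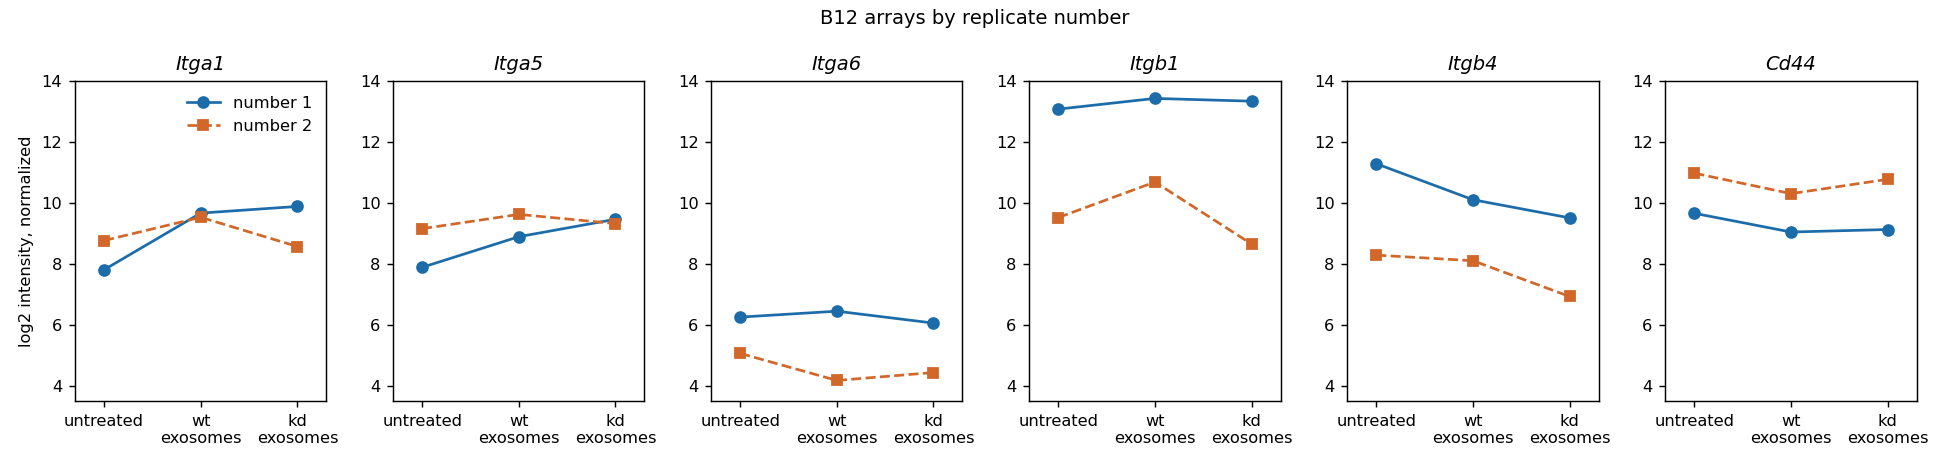
Normalized log2 intensity of the 5 integrin probes and Cd44 on the 6 B12 arrays, with a line for each replicate number across untreated cells, cells with wt exosomes and cells with kd exosomes. Itgb1, Itgb4 and Itga6 keep number 1 above number 2 in all 3 groups, Cd44 keeps number 2 above number 1, and Itgb4 falls from left to right in both lines.

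The direct comparison of kd with wt exosomes in B12 cells called 0 of 11631 probes (0%), and 231 had an unadjusted p under 0.05. The differences, kd minus wt, were −0.37 ± 0.55 (SE) for Itga1, 0.14 ± 0.51 for Itga5, −0.07 ± 0.97 for Itga6, −1.06 ± 2.03 for Itgb1 and −0.89 ± 1.40 for Itgb4, each with a limma adjusted p of 1. The groups of all 5 overlapped, while 20.5% of all probes had groups that did not. Itgb4 was lower with kd than with wt exosomes in both numbers, by −0.60 and −1.17, and Itgb1 by −0.09 and −2.03.

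Matrix ligands lay mostly above the untreated level: 15 of 19 with wt and 14 of 19 with kd exosomes, with medians of 0.37 and 0.40 against 0.01 and 0.008 for all probes, and 0 called. The smallest p in this list belonged to Vwf with wt exosomes and to Vtn with kd exosomes, and both lay lower. Each was detected on both untreated arrays and on no array of that treated group. Col4a1, a chain of the basement membrane collagen that α1β1 binds, differed by 1.14 ± 0.33 (SE) with wt and 1.01 ± 0.33 with kd exosomes. Ltbp1, which holds latent TGF-β in the matrix, differed by 0.90 ± 0.37 and 1.19 ± 0.37. Membrane partners lay above the untreated level in 5 of 12 genes with wt and 3 of 12 with kd exosomes, with medians of −0.12 and −0.21 and 0 called. Plec had the smallest p of them in both, with −0.70 ± 0.24 and −0.52 ± 0.24. Of 17 adhesion adapters 9 and 12 lay higher, with 0 called, and Lims1, a partner of integrin-linked kinase, did so by 0.44 ± 0.34 and 0.49 ± 0.34. None of these adjusted p-values from limma was below 1. The 4 other subunits tested, Itga11, Itgb6, Itgb7 and Itgbl1, gave medians of −0.23 and −0.16.

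In B12 cells, 3 of the 5 integrin probes separated by replicate number. This comparison was added after the data were seen, and the labels do not say what the number marks. With the group as a term (limma, 2 residual degrees of freedom), 3 of 5 integrin probes were lower in number 2, against 10.2% of all 11631 probes called lower and 19.6% called in either direction. Over all these probes, 1095 were called higher and 1190 lower in number 2. The adjusted p-values below are from this fit. The split was chosen from these same values, and whether each number stands for a single culture is not known. These p-values therefore describe the spread between the arrays and are not tests of the split.

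Itgb1 was 12.6-fold lower in number 2, with a log2 difference of −3.66 ± 0.34 (SE, adjusted p = 0.00167). Within untreated, wt-treated and kd-treated cells it was −3.56, −2.74 and −4.68. Itgb4 was 5.75-fold lower, with −2.52 ± 0.22 (adjusted p = 0.00132) and −2.996, −2.002 and −2.575 in the 3 groups. Itga6 was lower with a fitted difference of −1.69 ± 0.26 (adjusted p = 0.00808). It was detected on all 3 arrays of number 1 but on 1 of 3 of number 2, the untreated one, where it lay −1.19 from number 1, and in the treated groups the number 2 level is known only to be near background. The mRNAs of both α6β4 chains and of β1 were thus lower in number 2 in each of the 3 groups. Itga5 differed by 0.62 ± 0.28 (adjusted p = 0.186) and Itga1 by −0.17 ± 0.40 (adjusted p = 0.825), and both overlapped between the numbers. The 3 calls held under every other scaling tried, with highest adjusted p-values of 0.00165 for Itgb1, 0.00409 for Itgb4 and 0.0117 for Itga6. When 1 array is left out, the array remaining in its group carries no information on the number. Each such fit therefore rests on the other 2 groups. The differences were then −4.1 to −3.1 for Itgb1, −2.8 to −2.3 for Itgb4 and −2.0 to −1.4 for Itga6. The sizes depended on the scaling. Itga6 differed by −0.55 without background correction, −0.93 with an offset of 50 and −0.46 in the authors' values, Itgb4 by −1.64 in the authors' values, and Itgb1 by −3.66 to −3.45 over all of them.

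Among the other subunits, Itgb6, the epithelial partner of αv, was lower in number 2, where 2 of 3 arrays detected it, with a fitted −2.90 ± 0.42 (SE, adjusted p = 0.00679). Itgbl1, listed with the subunits but coding for a secreted protein with β-like repeats, was higher by 4.47 ± 0.19 (adjusted p = 1.35e-04). Itga11 and Itgb7 differed by 0.13 ± 0.61 and 0.003 ± 0.31 and were not called. Thus 1 of 4 was called higher and 1 lower.

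Of the membrane partners, 5 of 12 were called higher in number 2 and 3 lower, with a median of 0.55 against −0.02 for all probes. Of all probes, 19.6% were called in either direction, which also stands beside the list counts that follow. Tspan8 was lower by −3.35 ± 0.38 (SE, adjusted p = 0.00315), while Cd151 was higher by 0.88 ± 0.14 (adjusted p = 0.00848) and Cd44 by 1.41 ± 0.15 (adjusted p = 0.00238). Of the 17 adhesion adapters, 5 were higher and 1 lower. Tln1 (talin, which activates integrins at the β tail) was higher by 0.96, Ilk (integrin-linked kinase) by 0.94 and its partner Parva by 0.89, and Ptk2 (focal adhesion kinase) was lower by −1.39. Of 19 matrix ligands, 6 were higher and 2 lower. The higher ones included Col1a2 (3.15), Col6a1 (2.87), Tgfb1 (3.32) and Fbln5 (a fitted 5.07, detected on 2 of 3 number 1 arrays), which are collagen chains, a latent growth factor bound by αv integrins and an elastic fibre protein. The 2 lower ones, named after their values were seen, were Lamb3 (a fitted −1.50, detected on 2 of 3 number 2 arrays), a chain of the laminin that α6β4 binds, and Spp1 (−0.86), osteopontin. Epithelial and stroma markers split by the same number, as the shares given above show, and their part in the integrin differences was not tested.

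**Figure D4:**
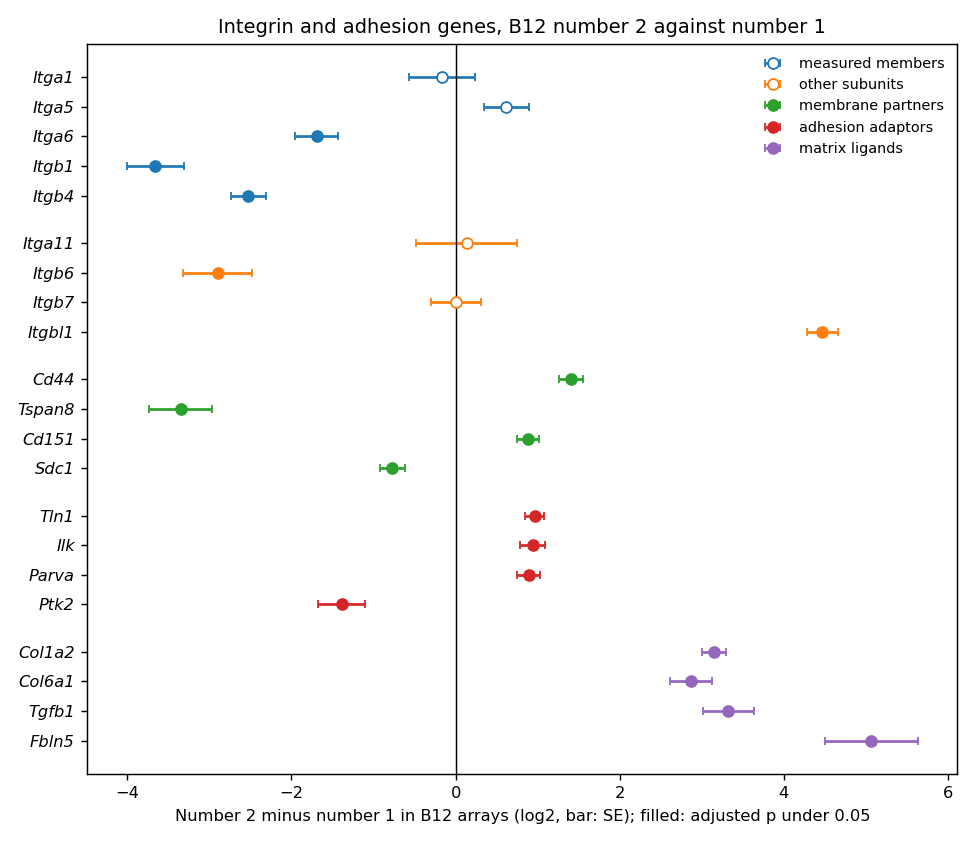
Difference between replicate numbers 2 and 1 over the 6 B12 arrays (log2, bar: SE) for the 5 integrin probes and for the 4 genes with the smallest p in each other list; filled points have an adjusted p under 0.05. Itga6, Itgb1, Itgb4 and Itgb6 lie below 0, Itga1 and Itga5 are not called, and Itgbl1 and 4 matrix ligands lie above 0.

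The third comparison set the mRNA carried by wt exosomes beside that of untreated B12 cells, on all 12 arrays normalized together. Itga1 and Itga5 were lower in exosomes, where they were not detected, and Itgb1 and Itgb4, detected in both, did not pass the test. Of 12231 probes, 35.2% were called, 17.1% lower in exosomes, and 66.8% did not overlap. Of the 5 integrin probes 2 were called, both lower, and 3 did not overlap. Itga1 and Itga6, detected on 0 exosome arrays, entered this fit only through B12 groups. Itga5, detected on 0 wt exosome arrays, entered through the kd exosomes as well. For these 3 probes the lower direction in wt exosomes was largely fixed by detection, so the counts are no support for it. The sources are different cell lineages as well as different compartments, which cannot be told apart here.

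Itga1 had joint log2 levels of 4.26 ± 0.15 (SD, n = 3) in wt exosomes and 7.63 ± 0.65 (n = 2) in cells, with a limma adjusted p of 5.37e-04. Under this joint normalization the cells were at least 7.73-fold higher, with the lowest detected signal standing in for the exosomes. Itga5 had 4.50 ± 0.11 and 7.86 ± 0.87, with an adjusted p of 4.74e-04. Under the same normalization the cells were at least 9.06-fold higher in Itga5. Both kept their call in all 13 alternatives in which they were tested, with fitted differences of −3.78 to −1.26 for Itga1 and −3.91 to −1.24 for Itga5, the smallest being those in the authors' normalized values. The alternatives reuse the same arrays, so they show the dependence on processing and are no further test.

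Itga6 had joint log2 levels of 4.20 ± 0.10 (SD, n = 3) and 5.35 ± 0.67 (n = 2), with a limma adjusted p of 0.0985. Under this normalization the cells were at least 1.59-fold higher. Over the other scalings tried the fitted difference ranged from −1.26 to −0.27. The Itga6 groups did not overlap under this normalization. Under median scaling its difference was −1.11, just above the median of all probes under that scaling, −1.18.

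Itgb1 had joint log2 levels of 9.05 ± 0.07 (SD, n = 3) in wt exosomes and 10.64 ± 2.56 (n = 2) in cells. The difference was −1.59 ± 1.33 (SE), with a limma adjusted p of 0.36. It was decided by the cell array: without untreated replicate 1 it was 0.22, and without replicate 2 it was −3.42. Itgb4 had 7.60 ± 0.13 and 9.12 ± 2.11, a difference of −1.51 ± 0.93 and an adjusted p of 0.221. Without untreated replicate 1 it was −0.02 and without replicate 2 it was −3.01. Under median scaling, which moved the median of all probes by −1.18, they were called with −3.87 (adjusted p = 0.0321) and −3.49 (adjusted p = 0.0091), and both lay below that median.

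**Figure D5:**
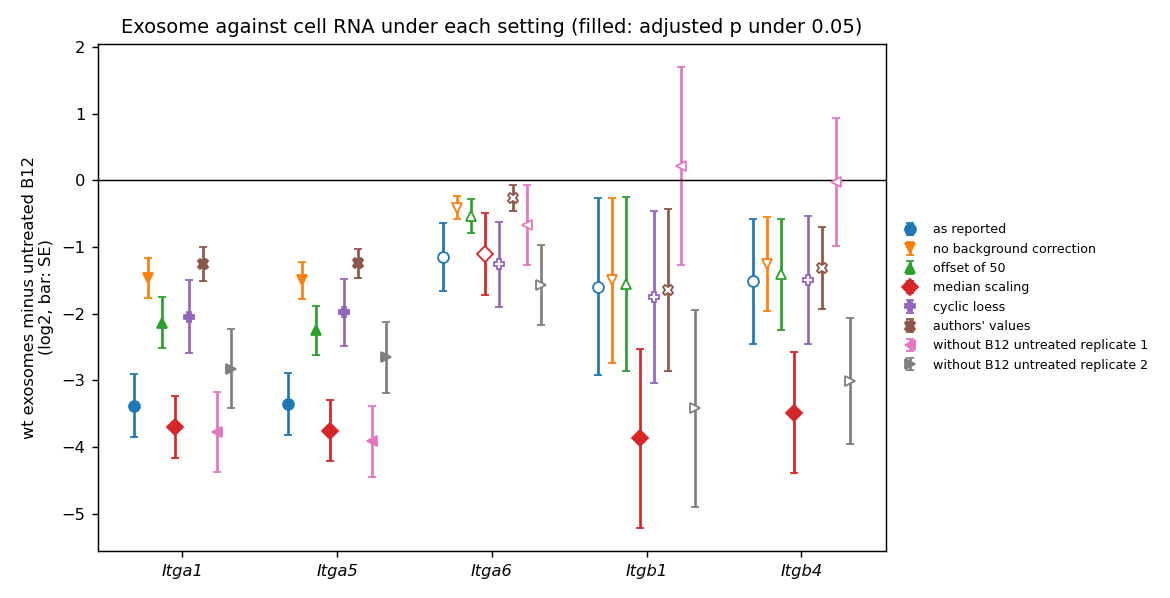
Difference between wt exosomes and untreated B12 cells (log2, bar: SE) for the 5 integrin probes under each scaling and without either untreated B12 array; filled points have an adjusted p under 0.05. Itga1 and Itga5 are filled and below 0 throughout, and Itgb1 ranges from −3.87 to 0.22.

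The matrix ligands gave the largest list difference: 15 of 19 were called lower in exosomes and 0 higher, with a median of −3.57 against 0.05 for all probes. With the 8 of them that no wt exosome array detected set at their bound, the median was −3.498. Only 6 of the 19 passed the detection filter on the exosome arrays alone. The rest entered this fit only through B12 groups, where they are bright, so their direction was largely fixed by the filter. The list count and median are therefore a description and not a test. Fn1, the ligand of α5β1, differed by −5.95 ± 0.35 (SE) and was detected on all arrays of both groups. Spp1, a ligand of αv dimers, was called lower too (limma adjusted p = 1.6e-06), but 1 of 3 exosome arrays detected it, so its fitted size is not given. Of 13 membrane partners 5 were lower and 1, Epcam, was higher, by at least 134-fold, since no untreated B12 array detected it. Of 17 adhesion adapters 5 were lower and 3 higher. Flna, the filamin that binds β tails, was lower by −2.04 ± 0.27. Of the 5 other subunits tested, Itgam was called higher in exosomes (1.14 ± 0.38, adjusted p = 0.0379), and Itga11 lower (adjusted p = 0.0396, at least 1.94-fold), both from limma. A single untreated B12 array of 2 detected each of them, and no wt exosome array detected Itga11. Itgam entered the fit only through the wt exosomes and Itga11 only through treated B12 groups, so both directions were largely fixed by the filter.

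Over all 18 other subunits listed, 14 had a probe. Itga2, Itga4, Itgad, Itgal, Itgb2 and Itgb8 were detected on none of the 12 arrays. Itgbl1 was detected on all 6 exosome and all 6 B12 arrays, and Itgb6 on 6 and 5.

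The likeness of each member to other genes was measured as the root mean square difference of log2 values centred on the mean of the 12 arrays, over 8245 candidate genes. It is a description, since the points share source and replicate number. Values at or near background enter it too: Itga1 and Itga6 were detected on 0 exosome arrays and Itga5 on 3. Small differences among them can thus come from shared low values. Itga1 and Itga5 followed each other closest among the members (0.56), followed by Itga6 with Itgb4 (0.71) and Itgb1 with Itgb4 (0.92). All pairs of Itga1 or Itga5 with Itga6, Itgb1 or Itgb4 lay between 1.53 and 1.91. The nearest other genes were Slc30a7, Pdia5 and Sulf1 for Itga1 (0.35 to 0.38), and Sulf1, Gga2 and P3h1 for Itga5 (0.33 to 0.36). They were Fem1c, Exd1 and Ms4a15 for Itga6 (0.12 to 0.19), Tbxas1, Ephx2 and Parm1 for Itgb1 (0.45 to 0.52), and Serpinb1a, Gprc5a and Tnfrsf21 for Itgb4 (0.27 to 0.38). For comparison, the median over all candidates was 0.95 for Itga6 and 2.18 for Itga1.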

How the data were processed

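Total RNA of 12 rat samples was measured on the 12 arrays of 1 Illumina chip after biotin labelling, per the labels' protocols. The deposited table holds a mean intensity and a p-value per probe and array, per the file headers, before any normalization. That p-value is small on both sides of background and was read as two-sided. Its software is not named in any source used here. Background was the median intensity of probes with a p-value above 0.9. Of 23365 rows, 848 without identifier and 571 that share 280 identifiers were left out. The platform table names 1 symbol for 13129 probes, several for 0 and none for 8817, and 13088 matched the GRCr8 gene table by gene ID, with 0 symbols changed. The authors' deposited value table, normalized intensity by a method not stated, was an alternative.

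Intensities were corrected, quantile normalized and logged (log2) with neqc of limma 3.58.1 in R 4.3.3 at an offset of 16, apart for 6 exosome and 6 B12 arrays and jointly for exosomes against cells. A probe was kept if every array of 1 or more groups detected it. Tests were limma's (lmFit, eBayes with trend, two-sided), with Benjamini-Hochberg adjustment over all probes kept, a threshold of 0.05, and 4, 3 and 7 residual degrees of freedom. The fit was run on simulated data with independent normal noise and 200 shifted probes. These held no split by replicate number and no outlying array, so they check the code and not its fitness for these arrays. For a probe detected in 1 group only, the fold is a bound against the higher of its own and the lowest detected signal per array, averaged. Such a bound holds for the main normalization only. The number of arrays limits the precision. Every member is described. Other genes are those with the smallest p in each list, at most 4 per list and comparison, Cd44, and the 3 genes nearest each member. The members and lists were chosen with earlier results of these data known. Background correction, offset, normalization, probe filter, array weights, replicate block, joint fits and each array left out were tried as alternatives.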

Additional observations from a re-analysis of the deposited data

How the results depend on the processing

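None of the 3 B12 treatment comparisons called a probe under any alternative. In kd against wt exosomes, where 0 integrin probes were called, 3 were called with array weights and 0 to 3 with 1 array left out. Over all probes of that comparison, 4178 were called with array weights, 2 with all 12 arrays fitted together and 0 to 4332 with 1 array left out, the highest without kd replicate 3. In wt exosomes against untreated B12 cells, 2 integrin probes were called as reported, 4 under median scaling and 0 among probes detected on all arrays, a filter that removes Itga1 and Itga5. Over all probes 2538 were called with that filter and 2354 to 3763 with 1 array left out. The share of calls that were higher in exosomes was 51.5% as reported, 12% under median scaling and 70.8% with that filter. Itgb1 in this comparison ranged from −3.42 to 0.2173 with 1 array left out, and turned sign without untreated replicate 1. The cause was not tested. For B12 number 2 against number 1, 1293 to 2286 probes were called with 1 array left out.

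With the replicate number as a block, 0 probes were called in the B12 comparisons and in the exosome comparison. For example, Itga1 in B12 cells with wt exosomes had a limma adjusted p of 0.869 and Itgb4 one of 0.886. The SE of the difference with wt exosomes was then 0.42 for Itgb1 against 2.03 without the block. For Itgb4 it was 0.27 against 1.40. In wt exosomes against untreated cells the block called 3 integrin probes, Itga6 with −1.13 (adjusted p = 0.0491) as the added one. Same-numbered B12 arrays correlated at 0.773 to 0.799 in their deviations from group means, and same-numbered exosome arrays at −0.207, 0.458 and 0.318. With 2 arrays per group this is a hint from the data and not a pairing the labels state. Low signal over background limits Itga1, Itga5 and Itga6, which were detected on 6, 9 and 4 of the 12 arrays.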
